A study of Mus musculus with 2 samples.

Results

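The 10 genes described here cover glucose uptake and the path from glucose to lactate. They are the glucose transporter Slc2a1, the enzymes Hk2, Pfkp, Aldoa, Gapdh, Pgk1, Eno1, Pkm and Ldha, and Pdk1, a kinase that controls the entry of pyruvate into mitochondria. They are found by gene symbol, and the symbols match 11 of the 26082 rows of each table, because Aldoa has a second row (ENSMUSG00000114515) with 10 and 13 counts, FPKM 0.17 and 0.16, which was left out. RNA came from primary mouse fibro-adipogenic progenitors (FAPs), stromal cells of skeletal muscle that can become adipocytes, of the WT genotype. One group was transfected with a plasmid that overexpresses TGFBR3, a co-receptor for TGF-β family ligands, and the other with the vector, and each group is 1 library. Both groups carry the label of adipogenic differentiation, for which the medium was supplemented with insulin at 10 μg/ml, dexamethasone at 0.25 μM, IBMX at 0.5 mM and FBS at 20%. The time in this medium, the number of animals behind each library and the promoter of the plasmid are not given in the labels. With 1 library per group there is no replicate check, no p-value is given, and every difference is between these libraries and not between the conditions.

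In glycolysis, glucose enters the cell through facilitative transporters and is trapped as glucose 6-phosphate by hexokinases. Phosphofructokinases make the first irreversible commitment to the pathway, aldolase splits the sugar, and the steps from glyceraldehyde-3-phosphate dehydrogenase to pyruvate kinase yield ATP and pyruvate. Lactate dehydrogenase turns pyruvate into lactate, whereas pyruvate dehydrogenase turns it into acetyl-CoA, a precursor of the fatty acids that adipocytes store. Most steps are encoded by several genes. Many of the genes are textbook targets of the hypoxia-inducible factor HIF-1 and of Myc, and insulin and growth factors promote glucose uptake.

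All genes together had 62321027 counts in the library labelled TGFBR3 OE and 83779203 in the library labelled control. FPKM values (counts scaled by exon length and by the size of the library) and counts are given below in this order, and "higher" and "lower" refer to the library labelled TGFBR3 OE. Differences are given on the log2 scale after adding 1 to each FPKM, and this scale understates the difference of low genes. The ratio of each of the 10 genes has a 95% confidence interval, derived by the exact Clopper-Pearson method from the counts of that gene. It covers counting error only. The study's methods name the KC-Digital Stranded mRNA kit and the labels another protocol, and whether molecular identifiers were used in the counting is not given in the sources used here. Without them, reads are not independent molecules. Over the 10626 genes that reached FPKM 1 in each library the median log2 ratio of FPKM, without the added 1, was 0.15. In values called "centred", the FPKM of the library labelled TGFBR3 OE was scaled down by this shift before 1 was added. The ratio also went down with the GC content of exons, from a bin median of 0.45 to −0.25. Values with this trend removed are therefore given too, though not for every gene named. The targeted gene, Tgfbr3, had FPKM 36.9 and 35.1. Its ratio was 0.07 (95% CI 0.04 to 0.10), which is −0.08 centred. It was therefore not above the median gene in the library labelled TGFBR3 OE, and the libraries are named by their labels throughout. Every "higher" and "lower" is the direction of the labels, which this gene does not bear out. The study also measured TGFBR3 by real-time PCR in FAPs given the plasmid or the vector. Whether these were the cells of the libraries is not stated, and the study's list of reagents does not give the species of the insert. The FAP markers Pdgfra (FPKM 30.5 and 32.6) and Ly6a (1013 and 706) were detected in both, while 5 of 9 tested markers of FAPs were lower, among them Dpt (−1.12), Col3a1 (−1.05) and Col1a1 (−0.89). No macrophage, erythroid, endothelial or muscle marker exceeded FPKM 1.13, and of the 9 macrophage markers none exceeded 0.46, with Adgre1, Tyrobp and Fcer1g at 0 counts. The adipocyte markers Adipoq (FPKM 5.69 and 13.0) and Cfd (15.3 and 39.0) were among 4 of 5 tested markers of adipocytes that were lower, and the whole list summed to FPKM 45.3 and 78.1. Of all 11213 genes whose mean FPKM over the libraries reached 1, 63.1% had a ratio above 0. The part of these cell markers in the results below was not tested. In such bulk RNA, fewer cells of a kind and less RNA per cell cannot be told apart.

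The glycolytic set as a whole differed little between the libraries. Of the 10 genes, 6 were higher and 4 lower, none was 2-fold or 1.5-fold different, and the median log2 ratio was 0.05. As background served all 11213 genes whose mean FPKM over the libraries reached 1, called the tested genes below. Of these, 63.1% had a ratio above 0 and the median was 0.14. Further, 3.14% were 2-fold higher and 1.03% 2-fold lower, and 13.3% were 1.5-fold higher and 4.91% 1.5-fold lower. The genes together took 1.85% of all counts (95% CI 1.846 to 1.853) in the library labelled TGFBR3 OE and 1.88% (1.874 to 1.880) in the library labelled control. Over all 28 rows of genes for glycolytic enzymes and lactate dehydrogenases, the shares were 2.31% and 2.41%. The direction of 4 genes depended on the scaling. Hk2 and Pfkp were higher, and Aldoa, Gapdh, Pkm and Pdk1 were lower, under each of the scalings tried. Slc2a1, Pgk1, Eno1 and Ldha changed sign under at least 1 of them.

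**Figure D1:**
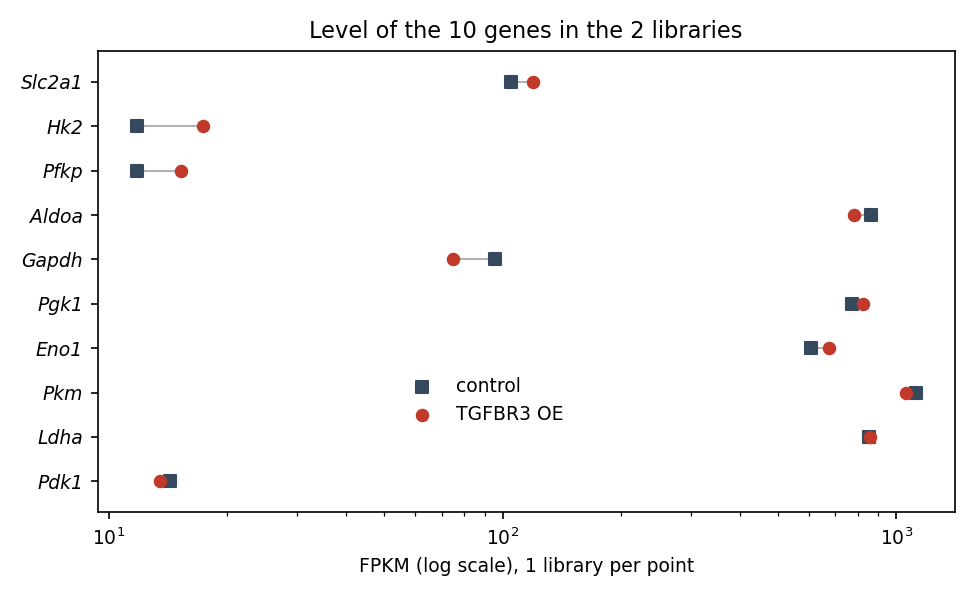
FPKM (log scale) of the 10 genes, with a square for the library labelled control and a circle for the library labelled TGFBR3 OE, 1 library each. Hk2, Pfkp and Pdk1 lie between 11.8 and 17.4, Slc2a1 and Gapdh between 74.8 and 119, and the other 5 genes between 606 and 1120.

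At the first step, uptake, which was not itself measured, Slc2a1 had most of the summed FPKM of the SLC2 family. It encodes the basal transporter GLUT1 (ENSMUSG00000028645, mm10 chromosome 4, 119108711 to 119137983, plus strand). Its FPKM was 119 and 105, from 28342 and 33972 counts, a log2 ratio of 0.18 (95% CI 0.16 to 0.21). The centred value was 0.03, so Slc2a1 lay close to the median gene on that scale, and on CPM, counts scaled to a common library total, with TMM library factors it was −0.04. With the GC trend removed Slc2a1 was at 0.18, where the median of all tested genes was 0. Among 11 genes of the SLC2 family, Slc2a1 made up 86.1% of the summed FPKM against 80.6%. This larger share came with lower values of its relatives. Slc2a6 had FPKM 4.01 and 7.13 (−0.70), Slc2a8 5.95 and 7.62 (−0.31) and Slc2a10 5.32 and 7.09 (−0.36), while Slc2a9, a urate transporter, had 2.34 and 1.63 (0.34). With the GC trend removed Slc2a6 was at −0.57, Slc2a8 at −0.07, Slc2a10 at −0.29 and Slc2a9 at 0.24. The insulin-responsive transporter Slc2a4 (GLUT4) of muscle and fat was near the lower limit, with 12 and 39 counts.

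Hk2 had the largest difference of the 10 genes on the deposited scale, while that of Gapdh was larger after centring, with TMM factors and with the exon length trend removed. Hk2, the inducible and mitochondrion-bound hexokinase (ENSMUSG00000000628, chromosome 6, 82725025 to 82774454, minus strand), had FPKM 17.4 and 11.8. This is a log2 ratio of 0.52 (95% CI 0.48 to 0.57), or 1.44-fold, above 83.5% of the genes tested. It was 0.38 after centring and 0.45 with the GC trend removed. The constitutive Hk1 had FPKM 64.4 and 60.6, a ratio of 0.09. Hk2 thus went from 16.2% of the summed hexokinase FPKM in the library labelled control to 21.1% in the other. Hk1 was the main gene at 83.1% and 78.2%. Divided by principal transcript lengths, the counts gave Hk2 a share of 8.64% in the library labelled control and 11.6% in the other. The summed FPKM of the step was 82.2 and 72.9.

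At phosphofructokinase, the gene in the set and its relatives went opposite ways. Pfkp, the platelet-type subunit (ENSMUSG00000021196, chromosome 13, 6579768 to 6648777, minus strand), had FPKM 15.2 and 11.8, a ratio of 0.34 (95% CI 0.31 to 0.37). With the GC trend removed this was 0.11, and 0.004 after the exon length trend was taken out. Pfkl, the liver type, was lower at FPKM 59.8 and 78.1 (−0.38), and Pfkm, the muscle type, at 17.1 and 20.0 (−0.21). The share of Pfkp in the step was 16.5% against 10.8%, and that of Pfkl 64.9% against 71.0%. With Pfkl the most abundant gene, the summed FPKM of the step was lower, at 92.1 against 110 (−0.25). The annotated exons of Pfkp span 13401 bases together, whereas its principal transcript has 4145. Divided by principal transcript lengths, a calculation added after the values were seen, the counts gave Pfkp a share of 28.0% against 19.0%. The level of the share thus depends on the length used. Its direction cannot, because a length is the same in both libraries and Pfkp had the highest ratio of the step. Exons of Pfkp also share 748 bases with Pitrm1 on the opposite strand, and the strand setting of the counting is not given in the sources used here.

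**Figure D2:**
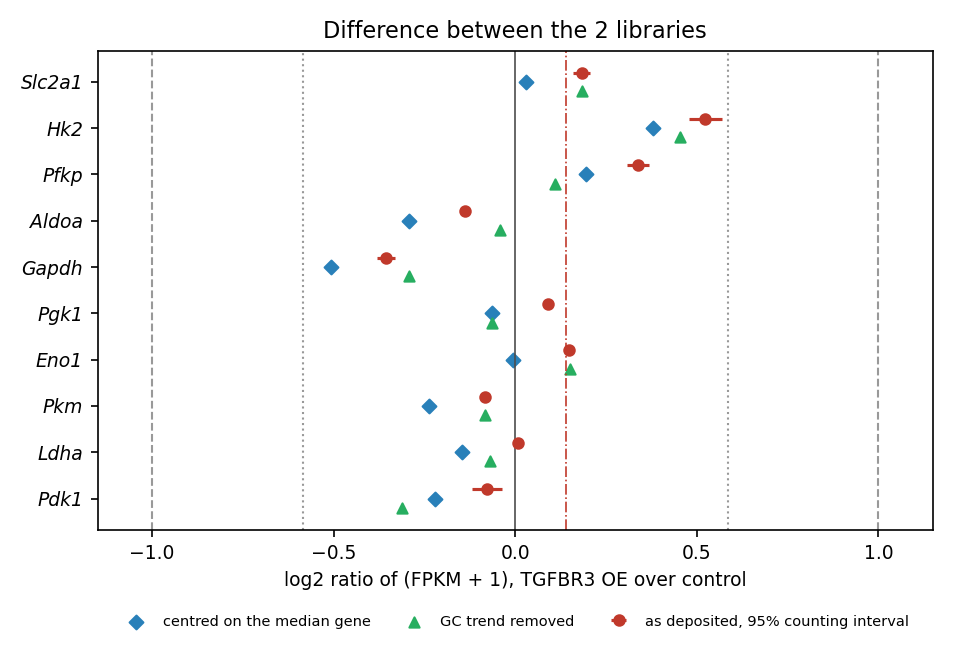
Log2 ratio of (FPKM + 1), library labelled TGFBR3 OE over library labelled control, for each gene as deposited (circle with its 95% counting interval), centred on the median gene (diamond) and with the GC trend removed (triangle). Dotted and dashed lines mark 1.5-fold and 2-fold and the dash-dot line the median of all genes tested (0.14). All 10 genes lie inside the dotted lines, with Hk2 highest at 0.52 and Gapdh lowest at −0.36.

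**Figure D3:**
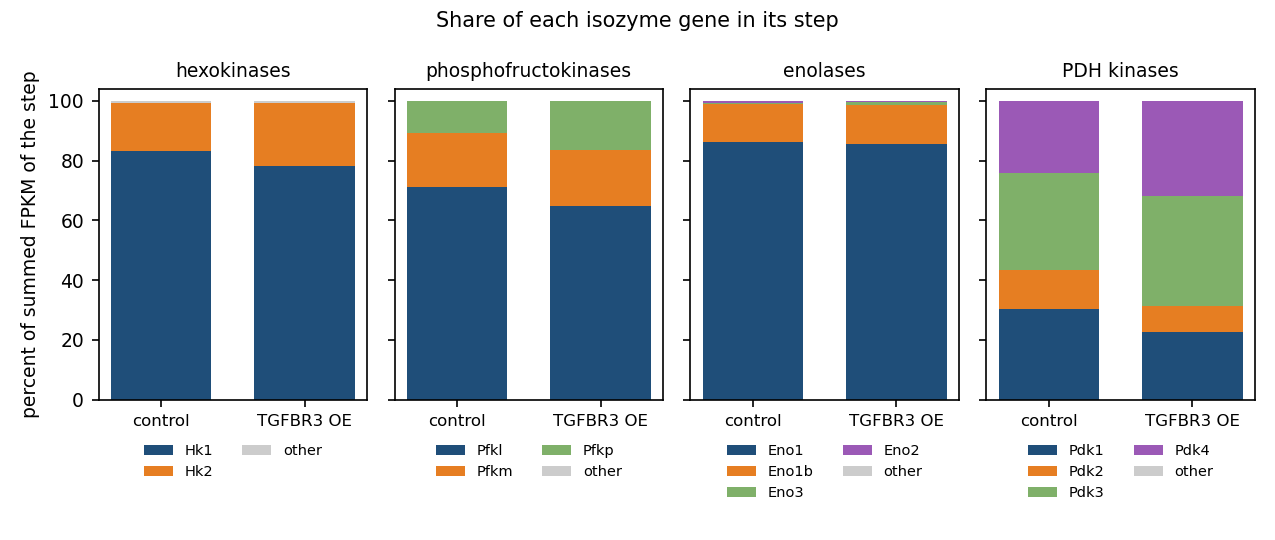
Percent of the summed FPKM of a step that each of its genes contributed, in the library labelled control and the library labelled TGFBR3 OE (1 library per bar). Hk2 goes from 16.2% to 21.1%, Pfkp from 10.8% to 16.5% and Pdk1 from 30.3% to 22.7%, while Eno1 stays near 86% (86.2% and 85.5%).

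Aldoa, the muscle-type aldolase that splits fructose 1,6-bisphosphate (ENSMUSG00000030695, chromosome 7, 126795234 to 126800751, minus strand), was lower. It had FPKM 782 and 861, from 154510 and 231647 counts, a ratio of −0.14 (95% CI −0.15 to −0.13). After centring this was −0.29, and with the GC trend removed −0.04. Its exons have the highest GC content of the set, 56.8% against a median of 50.0% over all genes. Aldoa made up 99.6% and 99.5% of the aldolase FPKM. Aldoc contributed FPKM 3.29 and 4.27.

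Gapdh, which oxidizes glyceraldehyde 3-phosphate and is a customary reference gene, also for the real-time PCR of the study, had the lowest ratio of the set. Gapdh (ENSMUSG00000057666, chromosome 6, 125161715 to 125166467, minus strand) had FPKM 74.8 and 95.9, from 20966 and 36629 counts, a ratio of −0.36 (95% CI −0.38 to −0.33). It was −0.51 after centring and −0.29 with the GC trend removed, and it was lower than the ratio of all but 11.9% of the genes tested. In level it stood at rank 655 and 509, far below the neighbouring enzymes of the pathway (FPKM 606 to 1120 for Aldoa, Pgk1, Eno1, Pkm and Ldha). Scaled by the length of the principal transcript instead of all annotated exons, the values were 218 and 279 for Gapdh and 949 to 2302 for those 5 genes.

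The row named Gapdh held a small part of the reads given to Gapdh-like sequence. The tables list 43 other genes that have at least 50% of their 31-base words in Gapdh transcripts, nearly all annotated as processed pseudogenes, and 41 of them reached a mean FPKM of 1. Gapdh itself took 7.63% of 274887 summed counts in the library labelled TGFBR3 OE and 8.51% of 430243 in the library labelled control. The copies' own FPKM values summed to 3628 and 4126. Gm7336 on chromosome 7 had FPKM 398 and 468, and Gm12671 on chromosome 4, whose coding part matches that of Gapdh without a mismatch over 1002 bases, had 340 and 397. Gm12286 on chromosome 11 differs at 13 of these bases and had FPKM 11.1 and 5.59. The coding bases 129 to 218, counted from the start codon, show how little separates such copies, with bases that differ from Gapdh in capitals:
Gapdh: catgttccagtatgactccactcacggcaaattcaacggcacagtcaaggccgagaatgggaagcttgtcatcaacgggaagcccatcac
Gm12671: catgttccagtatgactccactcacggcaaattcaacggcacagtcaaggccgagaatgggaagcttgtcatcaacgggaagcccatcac
Gm12286: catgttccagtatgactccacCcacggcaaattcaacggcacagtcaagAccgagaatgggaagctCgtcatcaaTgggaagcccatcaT
In this stretch Gm12671 has 0 and Gm12286 has 5 mismatches, and reads had 150 nt. Of the 150-base words of Gapdh transcripts, 18.1% also occur in transcripts of other genes. How the authors' counting treated reads that match several genes is not given in the sources used here.

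The copies with a larger and those with a smaller share of their words in Gapdh differed in direction. The 19 copies with at least 80% of their words in Gapdh were all lower, with ratios from −0.26 to −0.11 and a median of −0.20, and FPKM values from 29.1 to 468. Of the 22 copies under 80%, 21 were higher and 1 was lower, with a median of 0.47, and their FPKM was 0.58 to 18.2. The value of 80% was chosen after the ratios were seen, and copies that share reads are not independent of Gapdh or of each other. The share of words is also not the identity of the coding bases. Gm10358 and Gm3839 both match Gapdh at 99.3% of these bases. They have 82.8% and 55.6% of their words in Gapdh and ratios of −0.22 and 0.24. Summed over Gapdh and all its copies, the log2 ratio of CPM was −0.22 (95% CI −0.23 to −0.21), against −0.38 for the CPM of Gapdh alone. This interval takes each count as a separate read, and it is too narrow if reads were counted in several of these genes. Gapdh was therefore lower with and without its copies, and its size is uncertain.

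**Figure D4:**
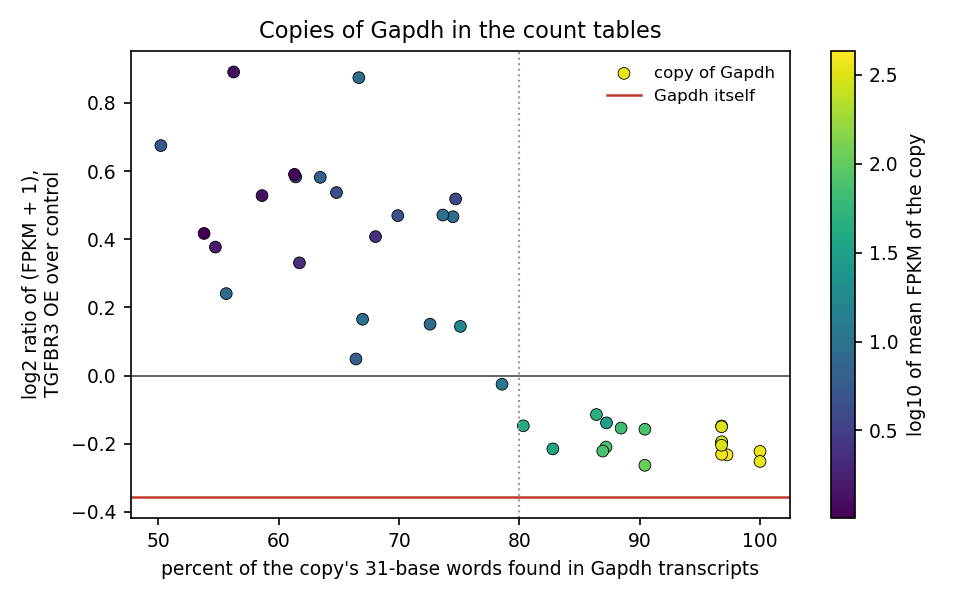
Log2 ratio of (FPKM + 1), library labelled TGFBR3 OE over library labelled control, of 41 copies of Gapdh against the percent of each copy's 31-base words found in Gapdh transcripts, coloured by the log10 of the mean FPKM. The 19 copies right of the dotted line at 80% lie between −0.26 and −0.11, above Gapdh itself (line at −0.36), and 21 of the 22 copies left of it lie above 0.

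Pgk1 and Eno1, which act after Gapdh, lay close to the median gene after centring. Pgk1, phosphoglycerate kinase (ENSMUSG00000062070, chromosome X, 106187100 to 106203699, plus strand), had FPKM 822 and 772, a ratio of 0.09 (95% CI 0.08 to 0.10) that turned to −0.06 both after centring and with the GC trend removed. Its retrocopy Pgk1-rs7, whose 31-base words all occur in Pgk1, had FPKM 71.8 and 34.5, a ratio of 1.03, and the copy Gm5537 had 38.9 and 24.3 (0.65). Pgk1 held 93.0% of the counts summed with its copies in the library labelled TGFBR3 OE and 95.9% in the other, and the summed CPM ratio was 0.12. Eno1, enolase of most tissues (ENSMUSG00000063524, chromosome 4, 150236721 to 150248879, plus strand), had FPKM 672 and 606, a ratio of 0.15 (95% CI 0.14 to 0.16), and −0.01 after centring. With the GC trend removed Eno1 was at 0.15, where the median of all tested genes was 0. Its near-identical gene Eno1b (FPKM 103 and 89.5, ratio 0.20) and the pseudogene Gm4735 (151 and 92.6, ratio 0.70) have 81.8% and 89.5% of their 31-base words in Eno1. Reads may match more than 1 of these genes, which was not examined, so these values are uncertain. The muscle enolase Eno3, at FPKM 7.90 and 3.34 and with 935 and 540 counts, had the one 2-fold difference among the glycolytic genes tested (1.04), which was 0.90 after centring.

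Pkm, pyruvate kinase of non-hepatic tissues (ENSMUSG00000032294, chromosome 9, 59656368 to 59679375, plus strand), had the highest level of the set. With FPKM 1056 and 1120, from 358238 and 517294 counts, it ranked 16 and 20 among all genes. Its ratio was −0.08 (95% CI −0.09 to −0.08), −0.24 after centring and −0.08 with the GC trend removed. Values per gene do not separate its M1 and M2 splice forms. Exons of Pkm share 767 bases with Gm49759 on the same strand, which was given 6303 and 4080 counts. Ldha, the lactate dehydrogenase subunit that favours lactate production (ENSMUSG00000063229, chromosome 7, 46841475 to 46855627, plus strand), was the gene nearest to no difference on the deposited scale, whereas Eno1 was nearest after centring. The FPKM of Ldha was 855 and 851, with a ratio of 0.01 and an interval that reaches 0 (95% CI −0.00 to 0.02). The ratio was −0.15 after centring and −0.07 with the GC trend removed. Ldha made up 98.0% and 97.4% of the lactate dehydrogenase FPKM, and Ldhb, the other subunit, was lower at FPKM 17.6 and 22.7 (−0.35).

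Pdk1 and Pdk2 were lower, while Pdk3 and Pdk4 were higher. These kinases phosphorylate and inhibit pyruvate dehydrogenase, and Pdk1 is the HIF-1-responsive member. Pdk1 (ENSMUSG00000006494, chromosome 2, 71873224 to 71903858, plus strand) had FPKM 13.5 and 14.3, from 7116 and 10270 counts, a ratio of −0.08 (95% CI −0.12 to −0.04). It was −0.22 after centring and −0.31 with the GC trend removed, the lowest of the set on that scale. Pdk4, a target of glucocorticoids and fatty acid signals, had FPKM 18.9 and 11.4 (0.68), and Pdk3 had 21.9 and 15.4 (0.49), whereas Pdk2 had 5.13 and 6.12 (−0.22). With the GC trend removed, Pdk4 was at 0.37, Pdk3 at 0.17 and Pdk2 at −0.12. The share of Pdk1 in the summed FPKM was 22.7% against 30.3%, and that of Pdk4 31.8% against 24.1%. The summed FPKM of the kinases was 59.4 and 47.1 (0.33).

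Among the glycolytic genes outside the set, lower values prevailed. Of 13 such genes that were tested, 8 were lower and 5 higher, with a median of −0.17 and of −0.18 with the GC trend removed, and 1 of the 13 was 2-fold higher. Over all tested genes, 63.1% had a ratio above 0 and 3.14% were 2-fold higher. Gpi1, the isomerase after hexokinase, had FPKM 164 and 198 (−0.27), Tpi1, the triose phosphate isomerase, 414 and 436 (−0.07), and Pgam1, the phosphoglycerate mutase, 655 and 736 (−0.17). Pgam2, its muscle form, had FPKM 4.05 and 2.18 (0.67). Eno2 (−0.24) and Aldoc (−0.30) were lower as well.

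At pyruvate and lactate, all 4 tested genes of lactate transport were lower, with a median of −0.18, and of −0.35 with the GC trend removed. The lactate exporter Slc16a3 had FPKM 65.5 and 83.7 (−0.35), its chaperone Bsg 794 and 971 (−0.29) and Slc16a1 15.8 and 16.7 (−0.08). With the GC trend removed Slc16a3 was at −0.25, Bsg at −0.16 and Slc16a1 at −0.46. Of 10 genes of the pyruvate dehydrogenase complex and mitochondrial pyruvate entry, 7 were higher and 3 lower, against 63.1% higher over all tested genes, and the median of 0.39 became 0.11 with the GC trend removed. Dld, the E3 subunit, had FPKM 19.5 and 11.8 (0.68), and Pdha1, the E1 alpha subunit, 42.8 and 29.5 (0.52). With the GC trend removed they were at 0.23 and 0.21. The mitochondrial pyruvate carriers Mpc1 (−0.33) and Mpc2 (−0.21), named after their values were seen, were lower. With the GC trend removed they were at −0.56 and −0.64. Pcx, the pyruvate carboxylase, had 9.75 and 15.2 (−0.59, and −0.50 with the GC trend removed). None of these 14 genes was 2-fold different on the scale used.

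Side branches gave mixed values, and their counts of higher genes stand against the 63.1% of all tested genes. In the pentose phosphate pathway, which makes NADPH, 5 of 8 genes were higher and the median was 0.02, with Rpe at 0.76 (0.38 with the GC trend removed), Pgls at −0.84 and Pgd at −0.19. In serine synthesis 4 of 5 were higher (median 0.21, and 0.06 with the GC trend removed), led by Phgdh, its entry enzyme, at FPKM 47.1 and 33.7 (0.47), with Psat1 at 0.29 and Shmt1 at 0.21. For glycogen metabolism 7 of 9 were higher (median 0.18, and −0.05 with the GC trend removed), and Ugp2, which makes UDP-glucose, had FPKM 50.1 and 27.8 (0.83, and 0.40 with the GC trend removed), while Gbe1 was at 0.26 and −0.18. The gluconeogenic genes tested, Pck2 (−0.55) and G6pc3 (−0.43), were lower. In the glycerol phosphate branch, Gpd2 was at 0.19 and Gpd1l at −0.01. Of 4 regulators of fructose 2,6-bisphosphate, the activator of phosphofructokinase, 3 were higher (median 0.29), with Tigar at 0.51, Pfkfb2 at 0.29 and Pfkfb3 at 0.28. With the GC trend removed the median was 0.09, and these genes were at 0.37, 0.009 and 0.17.

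Among regulators of glycolytic genes, the lists again stand against 63.1% higher over all tested genes. Hif1a, the oxygen-regulated subunit of HIF-1, had FPKM 82.9 and 52.2, a ratio of 0.66, or 0.21 with the GC trend removed. HIF-1 is controlled mainly through protein stability, which RNA does not show. In its list of 9 HIF factors and oxygen sensors, 3 were higher and 6 lower (median −0.10), with Arnt2 at 0.53 and the prolyl hydroxylase Egln2 at −0.61. Of 23 other HIF-1 target genes, 10 were higher and 13 lower (median −0.10), and the mitophagy genes Bnip3 (FPKM 211 and 134, 0.65) and Bnip3l (0.59) and the demethylase Kdm3a (0.71) had the largest differences on the deposited scale. With the GC trend removed they were at 0.31, 0.21 and 0.40, and Lox, named after its values were seen, was at −0.74. All 8 tested genes among other regulators were higher, with a median of 0.37 and of 0.30 with the GC trend removed. Among them, Prkaa1, the catalytic subunit of AMPK, had FPKM 14.8 and 7.05 (0.97, and 0.53 with the GC trend removed), Myc 22.8 and 17.0 (0.41) and Mlxip 5.91 and 4.20 (0.41). In the insulin signal 6 of 8 were higher (median 0.31, and −0.01 with the GC trend removed), with Irs1 at 0.55, Irs2 at 0.44 and Akt2 at −0.38. With 1 added to each FPKM none of the genes in these lists was 2-fold different, and Prkaa1, just under the threshold, would pass it without this addition.

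**Figure D5:**
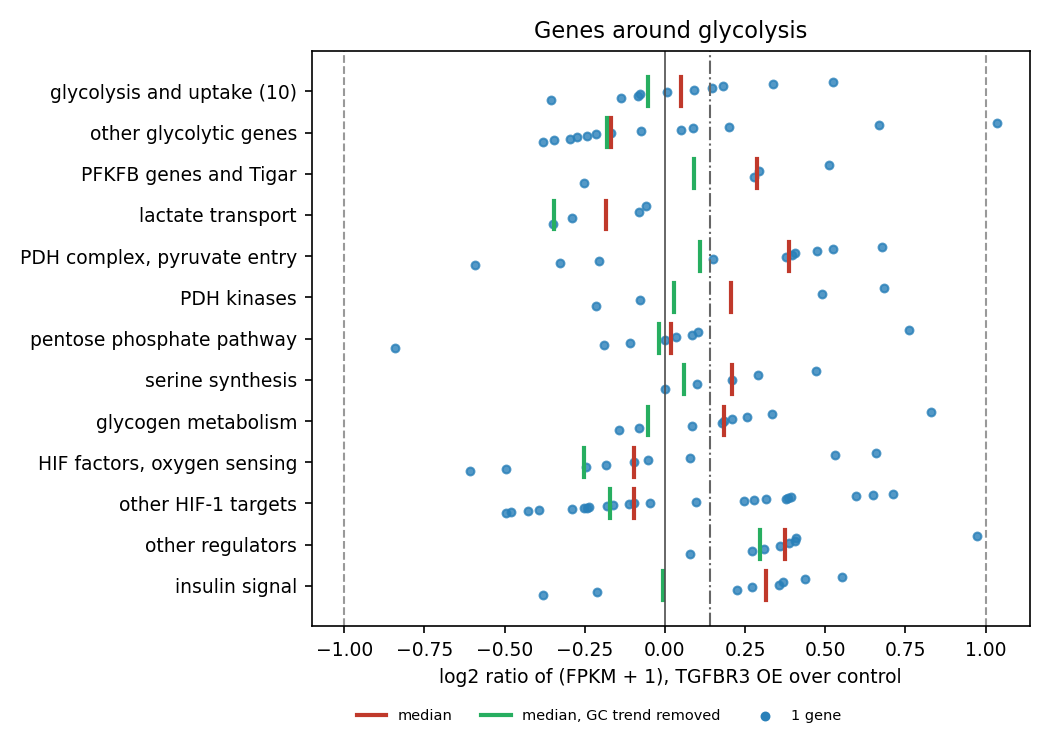
Log2 ratio of (FPKM + 1), library labelled TGFBR3 OE over library labelled control, of each tested gene (points) in the set and in the lists around it, with the median of each list as deposited (red) and with the GC trend removed (green). The dash-dot line is the median of all genes tested (0.14) and dashed lines mark 2-fold. The lactate transport genes lie below 0, the other regulators above 0, and Eno3 is the one point past 2-fold.

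The promoters were read because HIF-1 and Myc bind short shared motifs. The HIF core, ACGTG or GCGTG on either strand, was searched in the 250 bases before each RefSeq start on GRCm38.p6. The first of these strings is contained in CACGTG, the E-box of Myc, which counts on both strands. At least 1 match was present for 10 of the 10 genes and for 41.5% of 27025 genes, and in 14 of 17 windows of the set against 38.6% of 32851 windows. For the gene with the highest ratio, that with the lowest and that nearest to 0 on the deposited scale, 1 window each is shown. The windows of Gapdh and Ldha lie within the annotated span of their genes. Matches are in capitals:
Hk2, chr6:82774455-82774704, minus strand: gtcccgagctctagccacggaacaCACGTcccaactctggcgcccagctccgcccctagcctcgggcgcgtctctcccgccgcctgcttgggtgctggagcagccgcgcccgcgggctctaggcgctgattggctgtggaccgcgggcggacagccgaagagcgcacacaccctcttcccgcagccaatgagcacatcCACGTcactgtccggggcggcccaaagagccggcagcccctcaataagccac
Gapdh, chr6:125165774-125166023, minus strand: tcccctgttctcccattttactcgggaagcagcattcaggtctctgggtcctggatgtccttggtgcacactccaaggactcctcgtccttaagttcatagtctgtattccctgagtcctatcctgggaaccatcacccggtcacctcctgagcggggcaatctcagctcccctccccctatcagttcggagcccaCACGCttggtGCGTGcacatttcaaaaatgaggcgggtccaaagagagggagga
Ldha, chr7:46845554-46845803, plus strand: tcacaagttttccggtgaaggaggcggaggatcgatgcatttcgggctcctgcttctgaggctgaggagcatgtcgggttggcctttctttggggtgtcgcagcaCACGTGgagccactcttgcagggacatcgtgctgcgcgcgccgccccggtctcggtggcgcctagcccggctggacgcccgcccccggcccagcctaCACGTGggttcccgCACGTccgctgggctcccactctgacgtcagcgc
The windows shown hold 2 matches each for Hk2 and Gapdh and 5 for Ldha, whose other window (chr7:46846832-46847081) holds 1. The log2 ratios of these genes were 0.52, −0.36 and 0.01. A match is a short string of letters and no measure of binding.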

How the data were processed

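RNA of primary mouse FAPs was sequenced with 1 library per group (TGFBR3 OE and control), as paired reads of 150 nt. For every gene the authors deposited a raw count and an FPKM, which is the count scaled by gene length and by a library total, both without pooling. The study's methods name STAR and FeatureCounts on mm10, whereas the submitters' processing notes name cutadapt 1.9, HISAT2 2.2.1, StringTie 2.1.6, DESeq2 and edgeR without their roles. Reads that match several genes may be counted differently by these tools, which affects genes with copies such as Gapdh and Pgk1.

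From the deposited values, the log2 ratio of (FPKM + 1) was computed (Python 3.11.15, pandas 2.3.3, scipy 1.17.1), with a pseudocount of 1, thresholds of 2-fold and 1.5-fold and a background of genes whose mean FPKM reached 1. No count model was run, since none can be fitted without replicates. edgeR 4.0.16 (R 4.3.3) gave the TMM factors 1.07 and 0.932. The calculations were tested on simulated data. Exon lengths, GC content and coordinates came from GENCODE M21 on mm10, which holds 99.7% of the gene identifiers. Trends were removed as medians in 20 bins. A copy is a gene with at least 50% of its 31-base words in transcripts of the gene it copies. The members and gene lists were chosen with earlier results of these data known, and 11 of 198 list genes were not analysed here. The text names all 10 genes, genes of the same steps whose mean FPKM reached 1, and up to 3 genes with the largest ratio of each other list. Some genes that this rule covers are not reported here. Copies, overlapping genes, Slc2a4 and the FAP markers Pdgfra and Ly6a were named in addition, after their values were seen.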

Additional observations from a re-analysis of the deposited data

How the results depend on the processing

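None of the 10 genes was past 2-fold under any of the scalings, pseudocounts or trend corrections tried, and 1, Hk2 at 0.59, passed 1.5-fold when FPKM was rescaled to a common sum. The median log2 ratio of the set, 0.05, was 0.030 on CPM, −0.17 on CPM with TMM factors, −0.10 after centring, 0.12 with FPKM rescaled to a common sum, 0.028 without the 50 highest genes in that sum, −0.053 with the GC trend removed and −0.074 with the exon length trend removed. The set's median was below that of all genes tested under each of these. With TMM factors 2 genes were higher and 8 lower, and after centring 3 and 7. The numbers of genes 2-fold higher and lower in the background, 352 and 116, were 645 and 192 with a pseudocount of 0.1, 735 and 206 with none, 263 and 179 after centring, and 283 and 302 with TMM factors. The median of the pentose phosphate list changed sign in 6 of 10 alternatives, that of the glycerol phosphate branch in 4 and those of glycogen metabolism and phosphoglycerate kinase in 3. No paired analysis was possible because each group is 1 library and no result comes from a test, and for the same reason no replicate could be left out. At 6490 or more counts per gene and library, counting error is small, and the spread between cultures is unknown.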
